A study of Rattus norvegicus with 10 samples.

Results

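Genes of red blood cells and of their nucleated precursors were followed in the livers of 10 male Sprague Dawley rats, with 1 Agilent Whole Rat Genome array per rat. The genes were Hbb-b1, Hbb, Alas2, Slc4a1, Epb42, Rhag, Klf1 and Hemgn, 8 genes chosen as probes whose transcript accession belongs to these symbols. They are 8 of 13837 genes that could be named on the array and had 10 of its 41012 probes, and 7 of the 8 had a probe among the 22991 that were tested. Sulfur mustard (SM), a bifunctional alkylating agent, was injected subcutaneously into 4 rats at 3.5 mg/kg, which is 0.7 of its LD50, the median lethal dose. A further 3 rats had the same SM dose and, 1 h later, 120 mg/kg of MSTF into the stomach, a mixture of salvianolic acids of Salvia miltiorrhiza and total flavonoids of Anemarrhena asphodeloides. The 3 control rats had the solvent of SM alone, and all livers were taken at 24 h. The sources used here do not say whether the livers were flushed of blood. Whole liver was measured, so fewer red cells and less RNA per cell cannot be told apart.

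Circulating red cells have no nucleus, and the youngest of them, the reticulocytes, still hold globin RNA. Hemoglobin is built of alpha and beta globin chains around heme, and Alas2 makes the first and rate-limiting step of heme synthesis in red cell precursors. Slc4a1 (band 3, the anion exchanger), Epb42 (protein 4.2) and Rhag (the Rh-associated glycoprotein) are parts of the red cell membrane. Klf1 is the transcription factor that binds CACCC boxes of globin and other red cell genes, and Hemgn is a nuclear protein of erythroid precursors. The liver makes red cells in the fetus, whereas in the adult rat they come from bone marrow and spleen. Globin signal was taken here as the readout of blood in the tissue, and Alas2, Slc4a1, Klf1 and Hemgn as genes used mainly by immature red cells. This split is an assumption, since the globin RNA of blood is itself held by its youngest red cells. With group means removed, Alas2 followed Hbb as closely as Hbb-b1 did (r = 0.98 for both).

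The upstream sequences of both beta globin genes and of Klf1 are shown to mark where the box that Klf1 binds lies in them. No link between these motifs and the signals was tested. Each is the 250 bases before the RefSeq start on GRCr8, 5' to 3', with CACCC and GATAA (the core of the GATA factors' site), on either strand, in capitals.
Hbb (chr1:167663722-167663971, minus strand): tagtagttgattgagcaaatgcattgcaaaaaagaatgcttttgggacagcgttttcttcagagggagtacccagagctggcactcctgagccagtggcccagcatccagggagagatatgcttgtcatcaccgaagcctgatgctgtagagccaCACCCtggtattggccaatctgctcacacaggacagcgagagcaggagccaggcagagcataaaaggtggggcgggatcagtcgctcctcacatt
Hbb-b1 (chr1:167643521-167643770, minus strand): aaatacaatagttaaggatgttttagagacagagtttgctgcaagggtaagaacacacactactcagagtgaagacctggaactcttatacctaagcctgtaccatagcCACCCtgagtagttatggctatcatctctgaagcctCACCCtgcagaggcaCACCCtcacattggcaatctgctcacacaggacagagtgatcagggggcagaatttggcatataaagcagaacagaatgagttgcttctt
Klf1 (chr19:40158652-40158901, minus strand): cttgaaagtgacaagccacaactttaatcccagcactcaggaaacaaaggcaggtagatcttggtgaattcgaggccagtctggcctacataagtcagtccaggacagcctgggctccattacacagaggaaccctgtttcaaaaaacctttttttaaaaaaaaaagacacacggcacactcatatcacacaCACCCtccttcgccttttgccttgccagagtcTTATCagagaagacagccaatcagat
Hbb held CACCC starting 95 bases before its start, and Hbb-b1 held it at 141, 105 and 90 bases. The globin windows were identical at 160 of 259 aligned positions (61.8%). Klf1 held CACCC 58 bases and GATAA, on the other strand, 26 bases before its start. Of 33469 RefSeq windows of this length, 49.2% held CACCC and 23.5% held GATAA on either strand, so these matches are common. A window was listed for 7 of the 8 genes. Alas2, which followed Hbb as closely as Hbb-b1 did, held GATAA 135 bases before its start but no CACCC. Hemgn held no CACCC either, whereas Rhag held it 88 bases before its start.

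The globin signals spread widely from rat to rat within every group. All signals are log2 values after quantile normalization, so a difference of 1 is a 2-fold difference. Hbb-b1, an adult beta globin, read 16.15, 17.20 and 16.79 in control replicates 1 to 3. It read 15.90, 17.27, 17.52 and 16.70 in SM replicates 1 to 4, and 16.13, 17.29 and 17.04 in SM + MSTF replicates 1 to 3. The groups covered nearly the same range, and replicate 1 was the lowest in each of them. The Hbb probe, for another beta globin chain, read 11.83, 13.30 and 12.63 in the controls. It read 11.85, 13.76, 13.66 and 12.51 in the SM rats and 11.93, 13.43 and 13.11 in the SM + MSTF rats. From the lowest to the highest rat the signal differed 3.80-fold for Hbb and 3.08-fold for Hbb-b1, and for Hbb-b1 both extremes were SM rats.

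Neither globin differed between the groups beyond this spread. Hbb was 1.28-fold higher in SM than in control rats, with a 95% confidence interval of 0.544 to 3.01 (limma, adjusted p = 0.802). Hbb-b1 was 1.10-fold higher, with an interval of 0.568 to 2.11 (limma, adjusted p = 0.912). Against control, SM + MSTF gave 1.18-fold for Hbb (0.472 to 2.93) and 1.08-fold for Hbb-b1 (0.533 to 2.17). These wide intervals include both a higher and a lower content of globin RNA after SM. The Hbb-b1 spots were bright enough to be read from the scan at lower gain on all 10 arrays, and none was saturated.

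**Figure D1:**
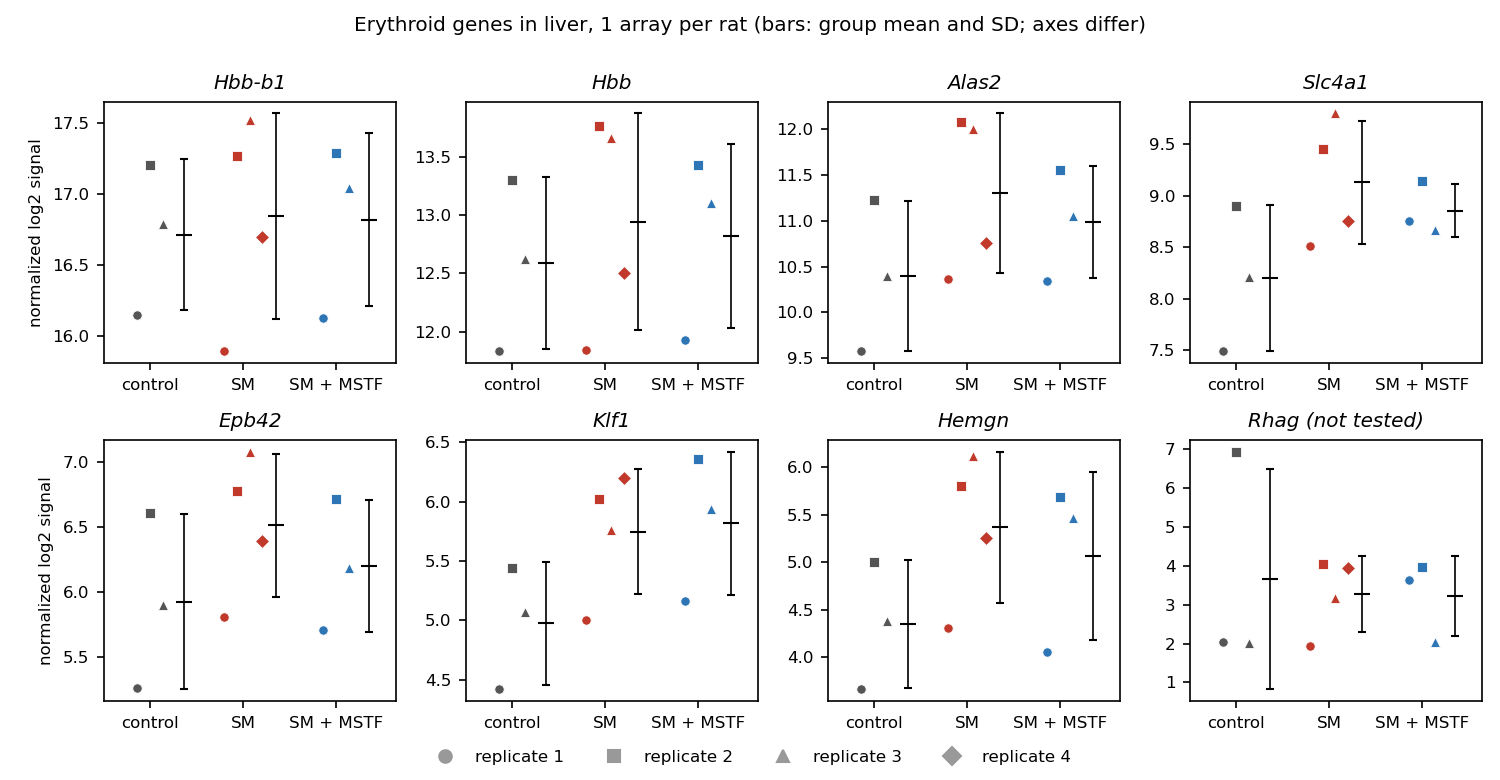
Normalized log2 signal of the 8 erythroid genes in each liver, by group (x axis), with the replicate number as marker and the group mean and SD as bars beside the points. Replicate 1 was the lowest of its group for both globins, Alas2, Epb42, Klf1 and Hemgn, and the groups overlap in every panel.

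Genes of immature red cells had higher group means after SM, but the groups overlapped and no difference passed the test. Alas2 read 9.58, 11.22 and 10.39 in the control rats. It read 10.36, 12.08, 12.00 and 10.76 after SM and 10.35, 11.56 and 11.06 after SM + MSTF. Control replicate 2 was thus above SM replicates 1 and 4. The mean in SM rats was 1.87-fold that of the controls, with an interval of 0.833 to 4.20 (limma, adjusted p = 0.440). In SM + MSTF rats it was 1.504-fold, with an interval of 0.634 to 3.57 (limma, adjusted p = 0.760).

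Slc4a1, which exchanges chloride for bicarbonate, read 7.49, 8.90 and 8.21 in the controls. The SM rats gave 8.51, 9.45, 9.80 and 8.75, and the SM + MSTF rats 8.75, 9.15 and 8.66. The mean difference between SM and control was 0.93 ± 0.37 (log2, SE), or 1.90-fold with an interval of 1.07 to 3.39, and the adjusted p of limma over all probes was 0.251. Epb42, which ties band 3 to the membrane skeleton, read 5.26, 6.61 and 5.90 in the controls. It read 5.80, 6.78, 7.08 and 6.39 after SM and 5.70, 6.71 and 6.18 after SM + MSTF, where the SM mean was 1.51-fold that of the controls (0.830 to 2.73; limma, adjusted p = 0.495). A further Slc4a1 probe was well above background on 1 array, and both Rhag probes on 1 and 2 arrays, so these were not tested. The brighter Rhag probe read 6.93 in control replicate 2 and between 1.93 and 4.03 on the other 9 arrays.

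Klf1 read 4.42, 5.44 and 5.07 in the controls. The SM rats gave 5.004, 6.02, 5.76 and 6.20, and the SM + MSTF rats 5.17, 6.36 and 5.93. Only replicate 1 of either treated group lay within the control range. The mean was 1.71-fold higher after SM (0.969 to 3.00; limma, adjusted p = 0.334) and 1.79-fold higher after SM + MSTF (0.979 to 3.28; limma, adjusted p = 0.534). Hemgn read 3.66, 5.001 and 4.38 in the controls, where it was well above background on 1 of 3 arrays. It read 4.30, 5.80, 6.12 and 5.26 after SM, on all 4 arrays well above background, and 4.05, 5.69 and 5.46 after SM + MSTF, on 2 of 3. Hemgn passed the filter on dim probes only through the SM rats, where it was highest, so its values are given as a description with no test.

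None of the 7 tested genes was called in SM versus control, at an adjusted p below 0.05 and a change of at least 1.5-fold, where 553 of 22991 probes (2.41%) were called. None was called in SM + MSTF versus control, where 0 probes (0%) were called and 2193 had an unadjusted p below 0.05. None was called in SM + MSTF versus SM, where 290 probes (1.26%) were. The 6 genes detected on all arrays of every group had a log2 fold change above 0 in SM versus control, from 0.13 for Hbb-b1 to 0.93 for Slc4a1, beside 55.9% of all tested probes and a median of 0.03 over them. Between SM + MSTF and SM, the values ran from -0.31 for Alas2 and Epb42 to 0.07 for Klf1, the only one above 0. These genes follow each other from rat to rat, so their shared direction counts as few independent observations. The SM arrays made up a slide of their own, so SM and that slide cannot be told apart. SM + MSTF replicate 3 shared the slide of the controls. It lay above their mean by 0.52 for Hbb, 0.33 for Hbb-b1, 0.66 for Alas2, 0.96 for Klf1, 0.46 for Slc4a1 and 0.26 for Epb42 (log2). With the slide as a fixed block this single array is the whole contrast with control, so its spread is assumed to be that of the other groups, and these differences are given without a test.

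The within-group spread of the erythroid genes was among the widest on the array. The SD within groups was 0.84 for Hbb, 0.79 for Alas2, 0.79 for Hemgn and 0.64 for Hbb-b1 on the log2 scale, against a median of 0.20 over 22986 probes. Between 93.6% (Klf1) and 97.8% (Hbb) of tested probes had a smaller SD. The hepatocyte genes Alb, Ttr, Apoa1, Serpina1, Tf, Cps1, Asgr1 and Ahsg, summed, ran from 20.63 to 20.77 in the control and SM arrays and from 20.55 to 20.71 in the SM + MSTF arrays (log2 of the sum). Most of that sum comes from the brightest probes, to which quantile normalization gives shared values. Tf, for example, read 18.7174 in control replicates 1 and 2 and in every SM + MSTF rat. The narrow range is thus partly set by the normalization and does not show a steady hepatocyte content.

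Rats with more globin signal had more of the immature red cell transcripts. Across the 10 rats, Hbb followed Hbb-b1 with Pearson's r = 0.98 (permutation p = 6e-05, adjusted 0.00015) and Spearman's rho = 0.93 (permutation p = 0.00032, adjusted 0.000533). It followed Alas2 with r = 0.94 (permutation p = 4e-05, adjusted 0.00015) and rho = 0.98 (permutation p = 4e-05, adjusted 0.0002). For Epb42 r was 0.91 (permutation p = 0.00046, adjusted 0.000767) and rho 0.94 (permutation p = 0.00022, adjusted 0.000533). These 3 held with little change when the 2 rats farthest from the median Hbb were left out, control replicate 1 and SM replicate 1, with r = 0.97, 0.94 and 0.89. Slc4a1 was looser, with r = 0.78 (permutation p = 0.0043, adjusted 0.00537), rho = 0.84 (permutation p = 0.0038, adjusted 0.00475) and r = 0.71 without those rats. Klf1 was the loosest of the 5 relations computed, with r = 0.72 (permutation p = 0.0237, adjusted 0.0237) and rho = 0.68 (permutation p = 0.0357, adjusted 0.0357). Its r fell to 0.50 without those rats, so that relation rests in part on them. With the group means removed, r was 0.98 for Hbb-b1, 0.98 for Alas2, 0.94 for Epb42, 0.86 for Slc4a1 and 0.79 for Klf1, given as a description.

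**Figure D2:**
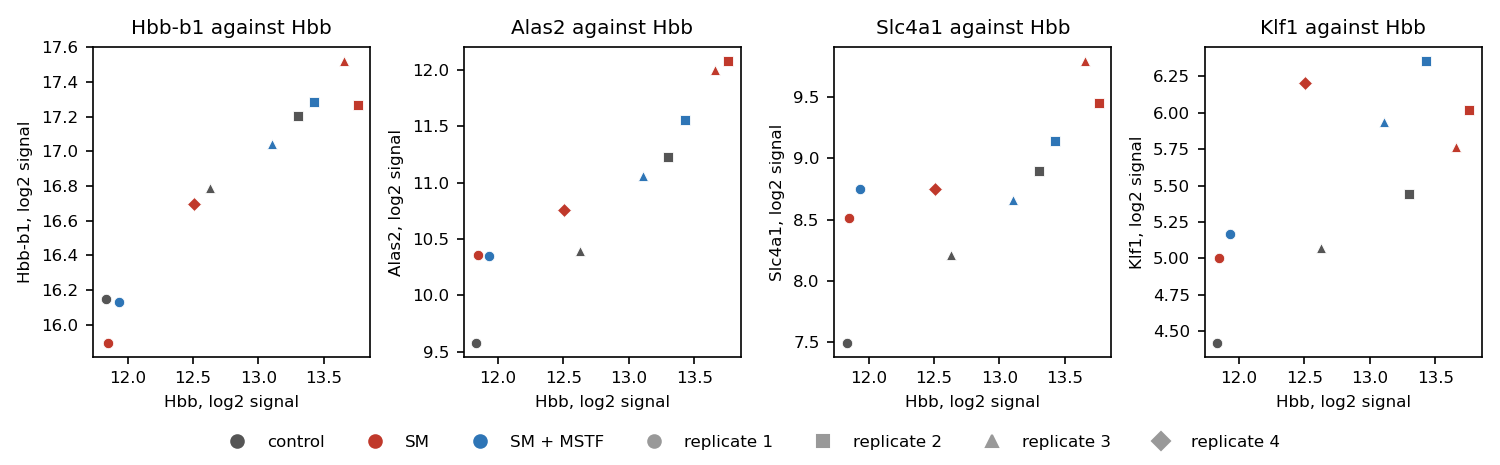
Log2 signal of Hbb-b1, Alas2, Slc4a1 and Klf1 (y axes) against Hbb (x axis) on the same array, 1 point per rat, coloured by group and marked by replicate number. Hbb-b1 lies along a single line for all groups (r = 0.98), while the Alas2 points of the control rats lie below those of the SM rats at a like Hbb signal.

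Of the named genes that were no members, Hba-a3 followed Hbb most closely over the 10 arrays (r = 0.98). Hba-a3 is an alpha globin, the partner chain of beta globin. The next were Exosc2 (0.96), a subunit of the RNA exosome, Prp15 (0.95), Cdc25b (0.94), a cell cycle phosphatase, and Car2 (0.92), a carbonic anhydrase. Alas2 was followed most closely by Add2 (0.98), the beta adducin of the red cell skeleton, then Cd52 (0.96), a surface glycoprotein of lymphocytes, Hba-a3 (0.96), Cdc25b (0.95) and Ybx3 (0.95), a cold shock domain protein. These r are the highest of named probes among 22986 compared and are a description. None of the 8 genes was called in SM versus control, with log2 fold changes from 0.14 for Exosc2 to 0.95 for Cd52.

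When each signal was set against Hbb on the same array, the control rats lay close together and the SM rats above them for Alas2 and Slc4a1. Alas2 minus Hbb was -2.26, -2.08 and -2.23 in the controls. It was -1.49, -1.68, -1.65 and -1.75 after SM and -1.59, -1.87 and -2.05 after SM + MSTF. Every SM rat and every SM + MSTF rat was above every control rat, although Hbb itself ran over 1.93 log2 units. The mean was 0.55 higher in SM than in control rats (exact two-sided permutation p = 0.0571, the smallest that 4 against 3 rats allow) and 0.35 higher in SM + MSTF rats (exact permutation p = 0.1, the smallest for 3 against 3).

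Hemgn minus Hbb was -8.17, -8.30 and -8.25 in the controls and -7.55, -7.96, -7.54 and -7.25 after SM. It was -7.88, -7.74 and -7.65 after SM + MSTF, again above all controls. Most of the control values rest on a signal near background, and with a normexp background correction, which compresses dim probes, the mean differences from control were -0.060 for SM and 0.023 for SM + MSTF, so no test is given for Hemgn. Slc4a1 minus Hbb was -4.34, -4.40 and -4.42 in the controls, -3.34, -4.31, -3.86 and -3.75 after SM, and -3.18, -4.28 and -4.44 after SM + MSTF. The SM rats were all above the controls, by 0.57 on average (exact permutation p = 0.0571), and SM replicate 2 cleared the highest control narrowly. They overlapped with 75th percentile scaling, where the difference was 0.53 (exact permutation p = 0.171), and with normexp, where it was 0.42 (exact permutation p = 0.171).

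For Klf1, Epb42 and Hbb-b1 the SM and control rats overlapped. Klf1 minus Hbb was -7.41, -7.86 and -7.56 in the controls and -6.84, -7.74, -7.90 and -6.30 after SM. It was -6.77, -7.07 and -7.17 after SM + MSTF, above all controls by a mean of 0.61 (exact permutation p = 0.1). With normexp, which compresses this dim probe as well, these groups overlapped and the difference was 0.17 (exact permutation p = 0.7). Epb42 minus Hbb differed by 0.23 between SM and control (exact permutation p = 0.457) and Hbb-b1 minus Hbb by -0.22 (exact permutation p = 0.343). Of the 5 members detected on all arrays of every group, 2 were higher without overlap in SM versus control, against 0.0783% of 22985 probes, and 2 in SM + MSTF versus control, against 0.0653%. None of the 5 was in SM + MSTF versus SM, against 0.165%. With normexp only Alas2 separated, in both comparisons with control. A probe that does not follow Hbb takes on the whole spread of Hbb in this difference and can hardly separate, so these shares are low by construction. The choice of globin mattered as well. With Hbb-b1 as the reference Epb42 also separated in SM versus control (0.46, exact permutation p = 0.0571), whereas Alas2 no longer did in SM + MSTF versus control (0.48, exact permutation p = 0.2). Alas2 and Slc4a1 separated in SM versus control with Hbb, Hbb-b1 or Hba-a3 as the reference.

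**Figure D3:**
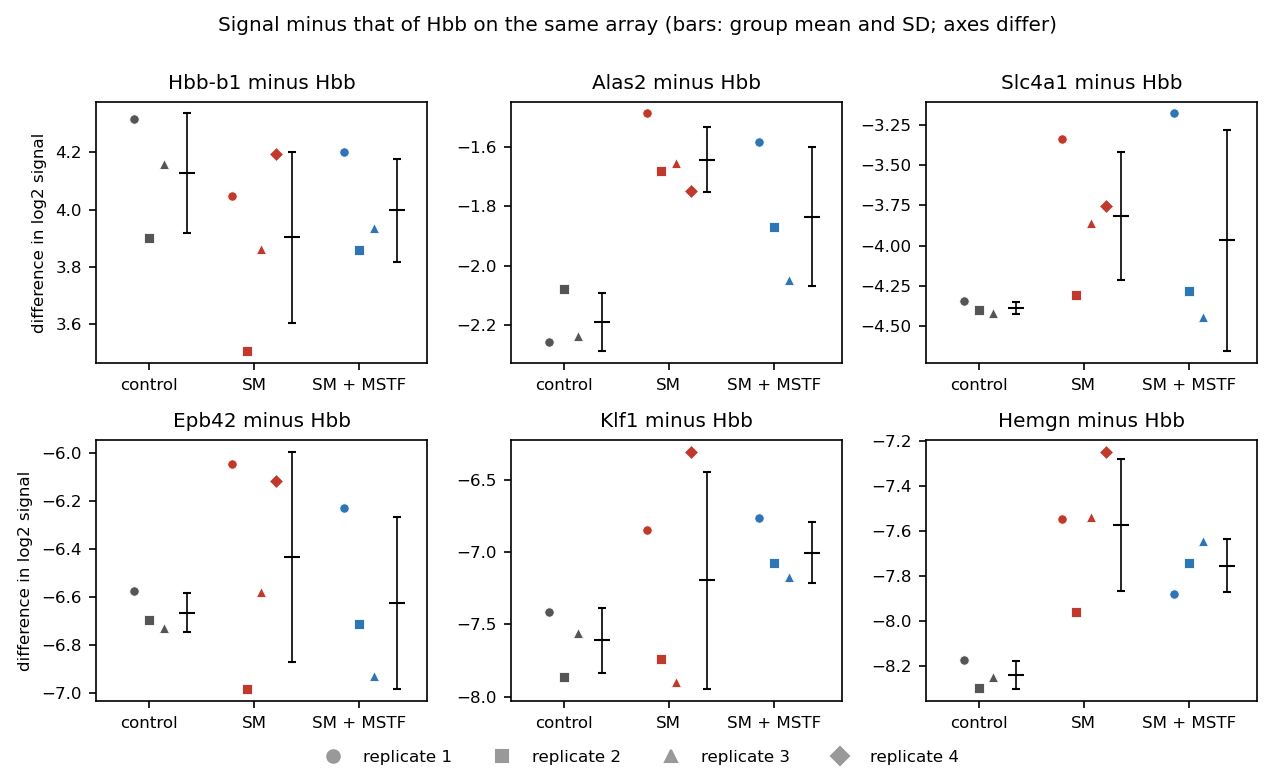
Log2 signal minus that of Hbb on the same array for 6 erythroid genes, by group (x axis), with the replicate number as marker and the group mean and SD as bars. For Alas2 all treated rats are above all control rats, for Hbb-b1 the groups overlap, and Hemgn was well above background on 1 of 3 control arrays.

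A fit over all probes with the Hbb signal as a covariate asks a related question, with p-values adjusted over the array. Subtracting Hbb assumes that a signal changes by as much as Hbb does, whereas this fit estimates a slope for each probe. With group means removed, the slope on Hbb was 0.93 for Alas2, 0.75 for Hbb-b1, 0.65 for Epb42, 0.58 for Slc4a1 and 0.52 for Klf1. Where the slope is low, the difference to Hbb still varies with Hbb. At equal Hbb, Alas2 was 0.57 ± 0.13 higher in SM than in control rats (log2, SE; limma, adjusted p = 0.067). Slc4a1 was 0.72 ± 0.21 higher (limma, adjusted p = 0.142), Klf1 0.59 ± 0.25 (0.292) and Epb42 0.36 ± 0.15 (0.308). None of the members was called, beside 1.4% of all probes. The same fit called none of them between SM + MSTF and control, beside 0%, with Klf1 at 0.72 ± 0.26. Between SM + MSTF and SM it called none, beside 0.87%. With Hbb-b1 as the covariate, Alas2 stood at 0.75 ± 0.19 in SM versus control (limma, adjusted p = 0.0869), and 1.62% of probes were called. Hemgn was among them, but its SM values had let it into the test, so that call is not read as a difference. With that covariate no member was called in SM + MSTF versus control (0%) or SM + MSTF versus SM (0.926%). The covariate fits were added after the values had been seen.

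The wider set of red cell genes, 87 genes in 7 lists of which 57 had a tested probe, gave a single call, which is 1.75% of them beside 2.41% of all probes for SM against control and 1.26% for SM + MSTF against SM. Hbg1, a beta-like globin of early life, read 4.41, 4.44 and 4.34 in the controls. It read 5.02, 4.99, 5.07 and 4.85 after SM and 4.33, 4.14 and 4.61 after SM + MSTF, so all SM rats were above all others. It was called against control (limma, adjusted p = 0.035) and against SM + MSTF (limma, adjusted p = 0.037). The probe is dim and, like Hemgn, passed the filter only through the SM rats, being well above background on 4 of 4 SM, 2 of 3 control and 1 of 3 SM + MSTF arrays, so no fold is given and neither call is read as a difference. With no filter on dim probes the adjusted p against control was 0.0569 (limma). Hbg1 had r = 0.18 with Hbb. The call against control was lost without any 1 of the 7 control and SM arrays, with adjusted p between 0.0559 and 0.119. Hbe2, an embryonic beta-like globin, stood at -0.53 on the log2 scale against control (limma, adjusted p = 0.516), and the Hbz probe never stood well above background.

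The lists are described over genes detected on all arrays of every group, which leaves out Hbg1, Hemgn, Epor, Trim58, Tal1 and Kel. Among the globins and their chaperone, 4 of 5 genes had a log2 fold change above 0 in SM versus control, with a median of 0.36. Ahsp, which keeps free alpha globin in solution, had the largest. It read 9.55, 11.39 and 10.56 in the controls, 10.71, 11.77, 12.03 and 11.63 after SM and 11.05, 11.77 and 10.90 after SM + MSTF. The SM mean was 2.05-fold that of the controls (1.03 to 4.07; limma, adjusted p = 0.279). Heme synthesis and mitochondrial iron genes had a median of 0.23 over 13, with 10 above 0 and Alas2 the largest. Alas1, the housekeeping isoform of the liver, had 0.28 (limma, adjusted p = 0.585).

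Membrane and cytoskeleton genes had a median of 0.59 over 7, with 6 above 0. The largest was Rhd, the Rh blood group antigen, which read 6.46, 8.06 and 7.38 in the controls. It read 8.01, 8.92, 8.86 and 7.90 after SM and 7.86, 8.69 and 7.63 after SM + MSTF. SM was 2.18-fold above control on average (1.14 to 4.18; limma, adjusted p = 0.217). Transcription factors and cofactors had a median of 0.05 over 7, with Klf1 the largest, whereas over the 9 that were tested, Hemgn and Tal1 included, it was 0.41. Gata1, the master factor of the lineage, was not tested. It was well above background on 3 of 4 SM arrays and on none of the 3 control or 3 SM + MSTF arrays, and its mean was at least 1.17-fold higher in SM than in control rats and at least 1.19-fold higher than in SM + MSTF rats, set against the lowest signal well above background. That rests on SM replicate 3 (6.47, beside 3.02, 4.49 and 4.49 in replicates 1, 2 and 4), since without it the SM mean of 4.001 lay below both bounds (4.39 and 4.37, log2). Gata1 was named after its values were seen.

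The largest difference of any red cell gene was that of Alox15, the lipoxygenase that takes part in clearing organelles as reticulocytes mature. It read 5.61, 7.80 and 6.72 in the controls. It read 8.11, 9.62, 8.63 and 8.85 after SM and 8.84, 8.70 and 7.71 after SM + MSTF. All SM rats were above all controls, as were 10% of all tested probes, and SM + MSTF replicate 3 lay just below the highest control. The SM mean was 4.26-fold that of the controls (1.91 to 9.54; limma, adjusted p = 0.070), and the SM + MSTF mean 3.27-fold (1.38 to 7.73; limma, adjusted p = 0.424). Alox15 is also used by eosinophils and some macrophages. The red cell enzymes, the list that holds Alox15, had a median of 0.20 over 8 in SM versus control and ran from -0.25 to 2.09. The remaining lists moved little in that comparison. Erythropoiesis signals and receptors had a median of 0.07 over 4, with Tfrc, the transferrin receptor, the largest at 0.23 (limma, adjusted p = 0.804). Hemoglobin and heme clearance had 0.10 over 8, with Lrp1, the receptor of heme bound to hemopexin, the largest at 0.43 (limma, adjusted p = 0.240). The Epo probe never stood well above background.

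**Figure D4:**
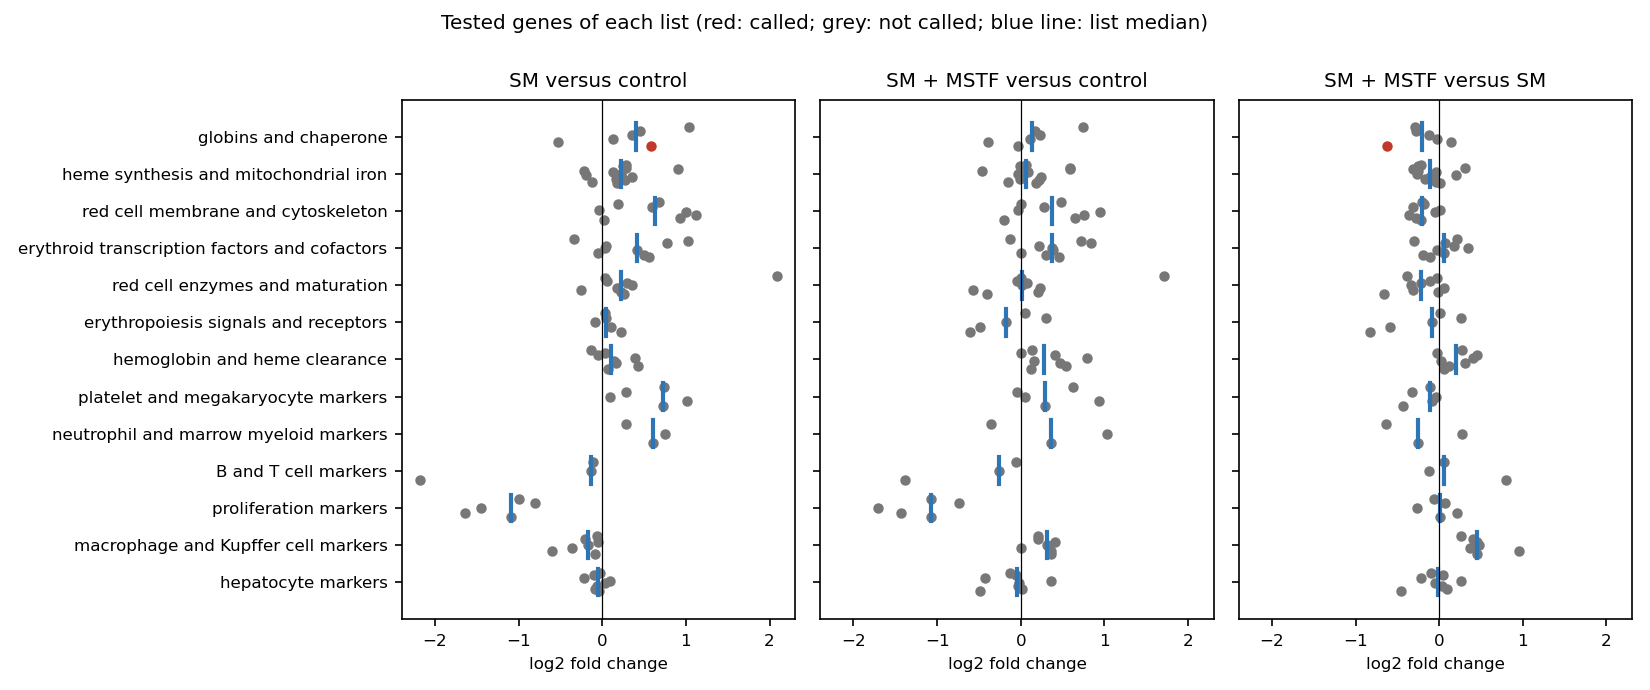
Log2 fold change (x axis) of each tested gene of the 7 red cell lists and 6 marker lists (y axis) in the 3 comparisons, with called genes in red, others in grey and the list median as a blue line. Hbg1, detected throughout the SM group only, is the single called gene, and the median of the platelet list is the highest in SM versus control.

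Markers of other cells were read beside these genes. Of 5 tested platelet and megakaryocyte genes none was called, beside 2.41% of all tested probes in SM versus control. All were above 0 in that comparison, beside 55.9%, and the median was 0.73, beside 0.03. With group means removed, r with Hbb was 0.91 for Gp1bb, 0.80 for Treml1, 0.72 for Pf4, 0.48 for Gp9 and -0.21 for Itgb3. Following Hbb from rat to rat was thus not particular to red cell genes. The summed list ran from 9.45 to 10.36 in control, from 10.62 to 11.17 in SM and from 10.48 to 10.91 in SM + MSTF arrays (log2 of the sum). Pf4, a chemokine of platelet granules, read 8.63, 9.67 and 9.44 in the controls, 10.18, 10.63, 10.17 and 10.07 after SM and 9.85, 10.21 and 10.49 after SM + MSTF. Each treated rat was above each control rat, with 2.03-fold for SM (1.36 to 3.01; limma, adjusted p = 0.073) and 1.92-fold for SM + MSTF (1.25 to 2.93; limma, adjusted p = 0.423). In SM versus control 10% of all tested probes were likewise higher with no overlap, and the share for SM + MSTF was not computed. The Gp5 probe never stood well above background. Proliferation genes ran the other way, with 5 of 5 tested below 0 in SM versus control, a median of -1.09 and none called. All 5 had an unadjusted limma p below 0.05, beside 16.4% of all tested probes. In SM + MSTF versus control all 5 were again below 0 and at an unadjusted limma p below 0.05, beside 9.54%. The median there was -1.08 and none was called. The sum of the proliferation genes ran from 10.78 to 11.41 in control, from 9.41 to 10.61 in SM and from 9.21 to 10.58 in SM + MSTF arrays.

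Neutrophil and marrow myeloid genes had 3 tested members with a median of 0.61, and Elane, Camp and Mmp8 never stood well above background. Their sum ran from 8.64 to 9.31 in control, from 8.73 to 10.77 in SM and from 8.93 to 9.91 in SM + MSTF arrays. Of 3 tested B and T cell genes 2 were detected throughout, with a median of -0.12. The third, Cd79b of the B cell receptor, passed the filter only through the controls, at 6.42, 6.65 and 6.02, and read 3.57, 4.28, 5.04 and 3.84 after SM and 5.63, 3.09 and 6.21 after SM + MSTF. All 7 macrophage and Kupffer cell genes were lower in SM than in control rats, with a median of -0.17. In that comparison 55.9% of all tested probes were above 0. All 7 were higher in SM + MSTF than in SM rats, with a median of 0.45, beside 46.4% of all tested probes. In SM + MSTF versus SM, 3 of them had an unadjusted limma p below 0.05, beside 15.9% of all tested probes. Marco, a scavenger receptor of Kupffer cells, stood highest there at 0.96 (limma, adjusted p = 0.147). Their sum ran from 16.71 to 17.07 in control, from 16.09 to 17.01 in SM and from 16.78 to 17.13 in SM + MSTF arrays. None of these lymphocyte and macrophage genes was called. The part of these cells in the red cell differences was not tested.

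**Figure D5:**
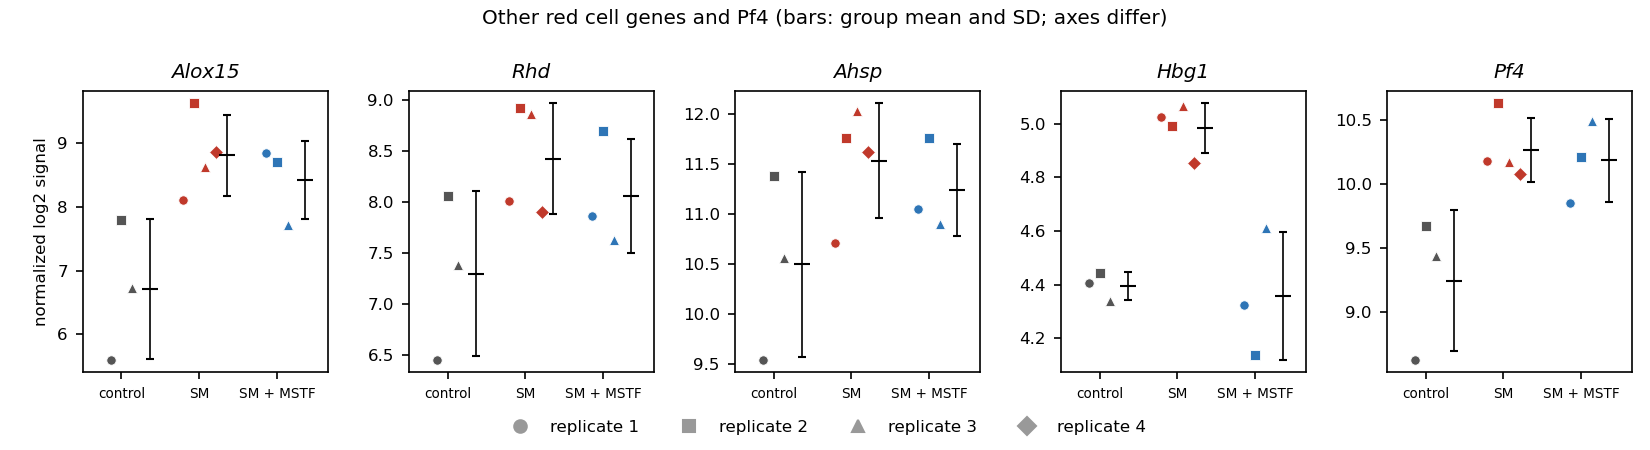
Normalized log2 signal of Alox15, Rhd, Ahsp, Hbg1 and the platelet gene Pf4 in each liver, by group (x axis), with the replicate number as marker and the group mean and SD as bars. All SM rats are above all controls for Alox15, Hbg1 and Pf4, as for 10% of all tested probes. Hbg1 passed the filter on dim probes only through the SM rats, and its SM + MSTF rats lie on both sides of the controls.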

How the data were processed

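Total liver RNA was hybridised to 1-colour Agilent arrays, 1 array per rat, in 3 control, 4 SM and 3 SM + MSTF rats. The authors deposited scanner files with the processed signal intensity of each spot (Agilent Feature Extraction 10.7, background already subtracted), and a table of log2 values that they normalized, which served as an alternative. No column of values went unmapped (0).

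The processed intensities were quantile normalized between arrays and taken to log2, non-uniform spots were left out and spots of a probe averaged. Tested probes had the scanner's mark of signal well above background throughout 1 group or more (for a probe with several spots, on no fewer spots than lacked it), and 2 values or more per group. limma 3.58.1 (R 4.3.3) was fitted to all 10 arrays, without a block, for 3 comparisons, with Benjamini-Hochberg adjustment over 22991 probes. A call needed an adjusted p below 0.05 and 1.5-fold. Accessions named 17512 of 41012 probes through RefSeq, and 110 of 138 listed genes had a probe. For genes with several probes the one of highest mean signal was used. Correlations used 100000 permutations and exact tests all regroupings (scipy 1.17.1). Precision is limited by how many arrays there are.

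The members, the lists and the tests were chosen with earlier results of these data known. Named genes were the members, the red cell genes called in any comparison, the gene of largest change in each red cell list, and the 5 genes most like Hbb and Alas2. On data simulated for SM versus control over 22986 probes, 82.5% of 200 probes that had been shifted by a log2 value of 1.5 were called. They were drawn at random from probes with a median within-group SD of 0.20, whereas members ran from 0.55 (Klf1) to 0.84 (Hbb). That share is therefore no measure of how often a change of this size would be called in the members. The authors state that rats were assigned to groups at random, but not how those used for arrays were picked within a group. The p-values set a group difference against the spread between these arrays. Alternatives were other scalings, the authors' values, other filters, the methods' t-test, blocks for slide or replicate number, each array left out, and, chosen after seeing the data, globin covariates, reference probes and lists limited to genes detected in all groups.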

Additional observations from a re-analysis of the deposited data

How the results depend on the processing

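None of the 7 tested erythroid genes was called in any comparison under any other scaling, filter or test, or without any array. The same held with slide as a random block and with the replicate block. Slide as a fixed block cannot test this, since SM had its own slide and SM + MSTF against control then rests on 1 array. Only 1, Hemgn, which passed the filter only through the SM group, was called in SM versus control with Hbb-b1 as a covariate. The 3 scalings kept the relations of Hbb to the other members past the threshold except that of Klf1 with normexp (r = 0.63, permutation p = 0.0552). The log2 fold change of Klf1 in SM + MSTF versus SM was -0.00956 with 75th percentile scaling, that of Hbg1 in SM + MSTF versus control was 0.22 with slide as a fixed block, and Hbb-b1 at equal Hbb was -0.13 (SM against control), -0.070 (SM + MSTF against control) and 0.065 (SM + MSTF against SM). With normexp the difference to Hbb in SM versus control turned from 0.67 to -0.060 for Hemgn, from 0.42 to -0.049 for Klf1 and from 0.23 to -0.0019 for Epb42. The normexp correction used an offset of 50, which compresses dim probes such as these. With it the slope on Hbb, with group means removed, was 0.33 for Epb42 and 0.18 for Klf1, beside 0.65 and 0.52 in the main scaling. This setting therefore cannot decide whether these dim genes changed relative to Hbb. What else moved these values was not tested.

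Leaving out each array in turn gave -0.021 to 0.72 for Hbb and -0.15 to 0.45 for Hbb-b1 in SM versus control, the lowest without control replicate 1. Tfrc ran from -0.042 to 0.53. Against control, SM + MSTF gave a Hbb that ran from -0.14 to 0.68, Hbb-b1 from -0.18 to 0.45, Epb42 from -0.054 to 0.62 and Hbg1 from -0.16 to 0.073. Against SM, Hbb ran from -0.49 to 0.32, Hbb-b1 from -0.34 to 0.32, Alas2 from -0.63 to 0.00657, Hemgn from -0.66 to 0.20 and Klf1 from -0.20 to 0.40, where SM + MSTF replicate 1 or 2 gave an end of each range. Calls over all probes ran from 65 to 717 for SM against control, from 0 to 247 for SM + MSTF against control and from 98 to 301 for SM + MSTF against SM. For red cell genes they ran from 0 to 1 in the comparisons that involve the SM group, and for marker genes from 0 to 1 for SM against control.

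In SM versus control, 553 probes became 226 with normexp, 342 without a filter, 336 with probes well above background on all arrays, 1131 and 320 by the methods' t-test before and after Benjamini-Hochberg adjustment, 85 with slide as a random block and 322 at equal Hbb. For SM + MSTF against control, 0 became 285 by the unadjusted t-test and 291 with slide as a fixed block. For SM + MSTF against SM, 290 became 60 with normexp, 140 with probes well above background on all arrays, 147 with the groups compared alone, 863 and 13 by the t-test before and after adjustment and 102 with the random block. The red cell call in SM versus control, Hbg1, went to 0 with normexp, the all-array filter, the random block and Hbb as a covariate, and 2 genes passed the unadjusted t-test. Against SM + MSTF it went to 0 with normexp, no filter, the all-array filter, the groups compared alone, the adjusted t-test, the random block and either covariate, and 2 passed the unadjusted t-test. Between SM + MSTF and control 1 did. Of marker genes, 1 was called in SM versus control with the groups compared alone and 6 by the unadjusted t-test, 1 in SM + MSTF versus control by that test and 1 with the fixed slide block, and 1 in SM + MSTF versus SM by that test.

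The replicate numbers are not stated to pair the rats, and deviations of same-numbered arrays from their group means correlated between -0.10 and 0.17 over 9 pairs, above 0.1 in 3. With the replicate block, 53 probes were called between SM and control and 64 between SM + MSTF and SM, 0 of them red cell genes, and Alas2 stood at 1.08 for SM against control (limma, adjusted p = 0.0749). Dim probes limit what can be said of Rhag, Gata1, Hemgn and Hbg1.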
